A study of Mus musculus with 7 samples.

Results

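Membrane mucins of the endometrial surface were followed here as 5 genes, MUC1, MUC4, MUC15, MUC16 and MUC20, chosen by name with earlier results of these data known. They are spelled here as in the table, in capitals. The table holds a row for 4 of the 5, among 24353 rows in all, and MUC16 was not analysed here. Of those 4, MUC1, MUC4 and MUC20 reached 1 FPKM (fragments scaled to transcript length and to the size of the library) in at least 1 library and were among the 12314 genes tested. MUC15 stayed below that level in all 7 libraries and was not tested.

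A membrane mucin is a large glycoprotein anchored in the apical membrane by a single membrane-spanning stretch, whose outer part carries dense sugar chains on serines and threonines. Together these molecules form the glycocalyx that lubricates the lumen and keeps microbes, and in the uterus the embryo, at a distance from the cell surface. In the mouse uterus MUC1 is known as the mucin of the luminal epithelium, kept up by estrogen and lost before implantation, so the response of the family to ovarian hormone signals is of interest in this tissue. Tamoxifen binds the estrogen receptor, blocks it in breast and activates it in part in the uterus. Alpelisib is a drug against the alpha catalytic subunit of phosphoinositide 3-kinase.

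RNA of epithelial endometrial cells came from C57BL/6 female mice whose ovaries had been removed at 6 to 7 weeks of age. The 18 randomized mice were placed in arms of 6 and treated for 28 days with tamoxifen at 0.5 mg per day under the skin plus oral alpelisib at 30 mg/kg per day, with tamoxifen alone, or with vehicle, which left them without estrogen. A further 2 mice carried a 0.01 mg estradiol pellet of 60-day release for 28 days. The libraries are 2 with tamoxifen plus alpelisib, 2 with tamoxifen, 2 with estradiol and 1 with vehicle. Every mouse lacked its ovaries, and the alpelisib arm also received tamoxifen, so alpelisib was not given alone. The labels do not say whether the vehicle library is from 1 mouse or from several, and every comparison with vehicle rests on that library.

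The labelled epithelial origin was checked against 10 epithelial marker genes. All 10 were present in all 7 libraries, and EPCAM, an epithelial adhesion molecule, stood between 202 and 289 FPKM. The labels give no number of reads; in 6 libraries the smallest step between FPKM values of single-transcript genes corresponds to between 16200000 and 19500000 fragments, as an estimate, and the second estradiol library showed no clear step. The sum of all FPKM lay between 264322 and 403562, and 10109 to 11167 genes reached 1 FPKM per library. In these bulk libraries, fewer cells of a type and less RNA per cell cannot be told apart.

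The promoters of the 3 tested mucins are shown because these genes differed together between the vehicle library and all others. Each sequence runs 5′ to 3′ on the gene's own strand from 250 bases before to 50 bases after the RefSeq start in GRCm38.p6, at chr3:89228806-89229105 on the plus strand for MUC1, chr16:32735636-32735935 on the plus strand for MUC4 and chr16:32797386-32797685 on the minus strand for MUC20. Capitals mark the motifs found.
MUC1 promoter: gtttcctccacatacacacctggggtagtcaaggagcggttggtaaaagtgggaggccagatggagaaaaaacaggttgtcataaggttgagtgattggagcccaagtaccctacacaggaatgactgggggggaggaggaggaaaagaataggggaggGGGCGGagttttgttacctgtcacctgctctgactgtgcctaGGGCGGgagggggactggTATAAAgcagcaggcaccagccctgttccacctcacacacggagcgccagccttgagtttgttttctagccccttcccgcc
MUC4 promoter: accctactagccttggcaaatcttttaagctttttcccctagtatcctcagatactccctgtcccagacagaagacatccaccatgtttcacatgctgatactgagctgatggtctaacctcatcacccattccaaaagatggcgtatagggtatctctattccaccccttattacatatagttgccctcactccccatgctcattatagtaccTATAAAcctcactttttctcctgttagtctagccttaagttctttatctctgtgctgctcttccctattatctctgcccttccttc
MUC20 promoter: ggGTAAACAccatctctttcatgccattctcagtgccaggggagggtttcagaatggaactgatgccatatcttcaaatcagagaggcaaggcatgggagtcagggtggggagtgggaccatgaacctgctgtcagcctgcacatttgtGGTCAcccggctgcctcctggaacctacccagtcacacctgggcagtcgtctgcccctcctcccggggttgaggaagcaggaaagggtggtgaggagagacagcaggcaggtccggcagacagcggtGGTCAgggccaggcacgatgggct

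Both strands of each window were searched for 5 motifs. The palindromic estrogen response element, GGTCANNNTGACC, was in none of the 3 windows and in 23 of 32851 mouse promoters of the same length (0.07%). One arm of it, GGTCA, which lies inside the palindrome, occurred at 2 places in the MUC20 window, against at least 1 occurrence in 40.5% of all promoters. The MUC20 window also held the forkhead core TGTTTAC, read on the opposite strand at bases 3 to 9, a motif in 3.65% of promoters. MUC1 and MUC4 each had a TATAAA, the core of the TATA box, at 31 and 36 bases before the start, a motif in 13.6% of promoters. MUC1 alone of the 3 had the GC box GGGCGG, at 2 places, and 35.7% of promoters hold it. The windows were 55.7% G and C in MUC1, 43.7% in MUC4 and 59.3% in MUC20. The single arm, the TATA box and the GC box were added to the search after the sequences had been read. A match describes the letters only and is not a site of binding.

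MUC4 and MUC20 are neighbours on chromosome 16, on opposite strands. In GENCODE M21 they share 627 exonic bases, which is 5.33% of the 11757 exonic bases of MUC4 and 15.6% of the 4027 of MUC20, through 1 of the 2 MUC20 transcripts. The sources used here do not state that strand was used in counting, so reads from that stretch cannot be told apart, and the values of these neighbours are uncertain to that extent. MUC1 on chromosome 3 shares no exonic base with another gene in that annotation.

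MUC1 was the most abundant of the family in every library. It encodes a mucin with a short cytoplasmic tail that can be phosphorylated and takes part in signalling, and that is shed from the cell surface. It stood at 109.4 and 111.7 FPKM with tamoxifen plus alpelisib, at 106.2 and 121.9 FPKM with tamoxifen, at 104.9 and 83.1 FPKM with estradiol and at 12.0 FPKM with vehicle. All 6 libraries of hormone- or drug-treated mice were above the vehicle library, and the alpelisib range lay inside that of tamoxifen alone, with both estradiol libraries below the lowest of the tamoxifen libraries. Between 1.85% and 2.06% of all rows had a higher value than MUC1 in the 6 treated libraries, against 14.9% in the vehicle library.

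MUC4 is a long mucin that binds the receptor ErbB2 through domains of epidermal growth factor type. Its level was 31.0 and 31.5 FPKM with tamoxifen plus alpelisib, 30.4 and 30.0 FPKM with tamoxifen, 18.2 and 22.3 FPKM with estradiol and 2.54 FPKM with vehicle. The 4 tamoxifen libraries lay close together, between 30.0 and 31.5 FPKM, and above both estradiol libraries, which in turn lay above vehicle.

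MUC20, a short membrane mucin first described in kidney and known in human cells to bind the receptor Met, had the widest spread between the treated groups. It stood at 37.7 and 35.3 FPKM with tamoxifen plus alpelisib, at 49.8 and 43.7 FPKM with tamoxifen, at 22.4 and 23.0 FPKM with estradiol and at 3.27 FPKM with vehicle. None of the 4 groups overlapped for MUC20, but with so few libraries per group this can be common, and it was not counted over all genes.

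MUC15, a membrane mucin known from the milk fat globule membrane, was close to absent at this depth. The table lists it at 0.0695 and 0.0916 FPKM with tamoxifen plus alpelisib, at 0 in both tamoxifen libraries, at 0.0880 FPKM and 0 with estradiol and at 0 with vehicle. No fold change is given for it.

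**Figure D1:**
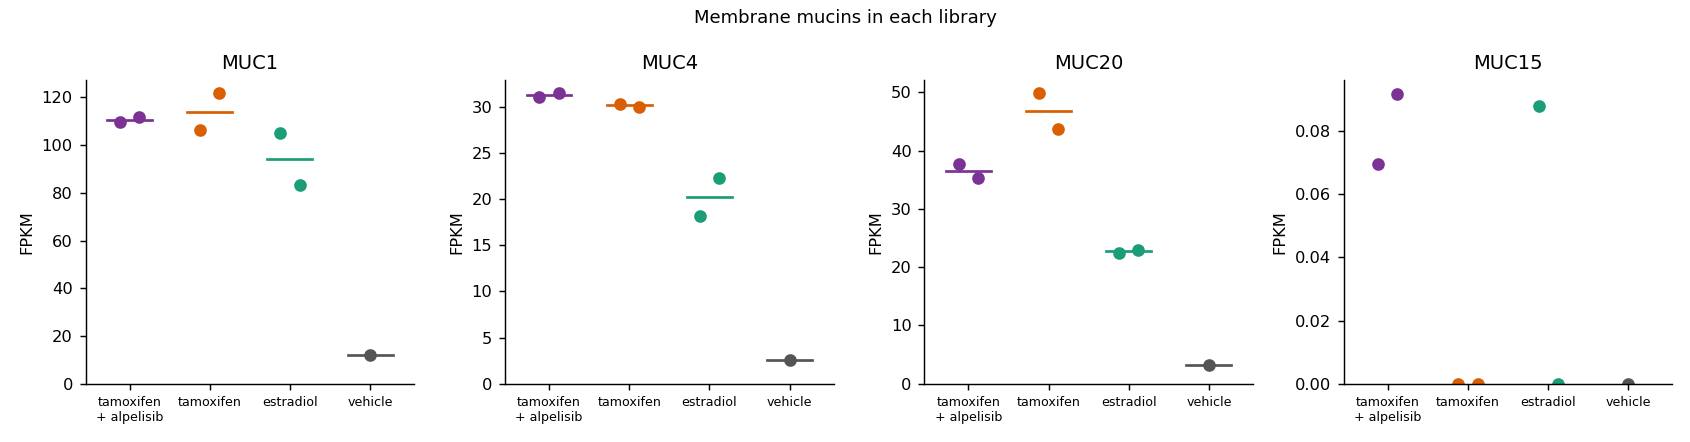
FPKM of MUC1, MUC4, MUC20 and MUC15 in each of the 7 libraries, with 1 point per library and a line at the group mean (none is drawn for MUC15). For MUC1, MUC4 and MUC20 the vehicle library lies below the 6 others, and for MUC4 and MUC20 the 4 tamoxifen libraries lie above the 2 with estradiol on this FPKM scale, though not when scaled to the summed epithelial markers; MUC15 stays below 0.1 FPKM.

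The order of the 3 expressed mucins was the same everywhere. Since FPKM is per length, the levels of the genes can be set beside each other. MUC1 exceeded MUC20, and MUC20 exceeded MUC4, in 7 of 7 libraries. MUC1 was 3.50 to 5.77 times as abundant as MUC4 and 2.13 to 4.68 times as abundant as MUC20. The neighbours in that order, MUC20 and MUC4, lay closer: the ratio of MUC20 to MUC4 was 1.21 and 1.12 with tamoxifen plus alpelisib, 1.64 and 1.45 with tamoxifen, 1.23 and 1.03 with estradiol and 1.29 with vehicle. The ratio was thus highest in the 2 tamoxifen libraries, while in the second estradiol library the pair was nearly level.

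All 3 tested mucins were higher with tamoxifen than with vehicle. MUC1 averaged 114.0 ± 11.1 FPKM with tamoxifen (SD, n = 2) against 12.0 FPKM in the vehicle library, 9.51 times as much. MUC4 averaged 30.2 ± 0.237 FPKM against 2.54 FPKM, 11.9 times as much, and MUC20 averaged 46.8 ± 4.36 FPKM against 3.27 FPKM, 14.3 times as much. On the log2(FPKM + 1) scale, which understates the change of low genes, the differences were 3.14 ± 0.21 for MUC1 (SE, limma with Benjamini-Hochberg adjustment, adjusted p = 0.000213), 3.14 ± 0.17 for MUC4 (adjusted p = 0.000109) and 3.48 ± 0.16 for MUC20 (adjusted p = 7.32e-05). These 3 of 3 calls stand beside 39% of all tested genes called, 14.9% higher and 24.1% lower, and the median of the 3, 3.14, beside a median of -0.12 over all genes.

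The same 3 mucins were higher with tamoxifen plus alpelisib than with vehicle, where 34.9% of tested genes were called, 13.1% higher and 21.8% lower. MUC1 averaged 110.6 ± 1.61 FPKM (SD, n = 2), 9.22 times the vehicle level. MUC4 averaged 31.3 ± 0.333 FPKM, 12.3 times the vehicle level, and MUC20 averaged 36.5 ± 1.71 FPKM, 11.2 times. The log2 differences were 3.10 ± 0.21, 3.19 ± 0.17 and 3.13 ± 0.16 in that order (limma adjusted p = 0.000261, 0.000116 and 0.000105), against a median of -0.15 over all genes.

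With estradiol the 3 mucins were higher than with vehicle as well, in a comparison where 35.5% of tested genes were called, 22.7% higher and 12.8% lower. MUC1 averaged 94.0 ± 15.4 FPKM with estradiol (SD, n = 2), 7.84 times the vehicle level. MUC4 averaged 20.2 ± 2.91 FPKM, 7.95 times, and MUC20 averaged 22.7 ± 0.386 FPKM, 6.95 times. The log2 differences were 2.86 ± 0.21, 2.58 ± 0.17 and 2.47 ± 0.16 (limma adjusted p = 0.000640, 0.000507 and 0.000482), against a median of 0.12 over all genes. In a fit of the estradiol and vehicle libraries alone, all 3 adjusted p were just under the threshold of 0.05 (0.0496 to 0.0498). The comparisons with vehicle share its single library, so a low vehicle value enters each of them and they are not independent of each other.

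On the FPKM scale MUC20 was higher with tamoxifen than with estradiol, 2.06 times, with a log2 difference of 1.01 ± 0.13 (limma adjusted p = 0.00188). MUC4 was 1.49 times as high, with a log2 difference of 0.56 ± 0.14 (limma adjusted p = 0.0189). MUC1 did not pass the test, at 0.28 ± 0.17 (limma adjusted p = 0.223, 95% interval -0.14 to 0.70). The call on MUC4 was lost without either tamoxifen library, without either library of tamoxifen plus alpelisib and in a fit of the 2 groups alone (limma adjusted p between 0.0595 and 0.0626). These 2 of 3 calls stand beside 48.5% of tested genes called, 12.3% higher and 36.2% lower, and the median of all genes was -0.26.

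Tamoxifen plus alpelisib against estradiol gave 2 of 3 calls on the FPKM scale as well, with 53.2% of tested genes called, 15.7% higher and 37.5% lower. MUC20 was 1.61 times as high with tamoxifen plus alpelisib, with a log2 difference of 0.66 ± 0.13 (limma adjusted p = 0.00724). MUC4 was 1.55 times as high, at 0.61 ± 0.14 (limma adjusted p = 0.0123), and MUC1 did not pass, at 0.24 ± 0.17 (limma adjusted p = 0.281, 95% interval -0.18 to 0.66). Without the first library of tamoxifen plus alpelisib both calls were lost, at adjusted p = 0.0854 for MUC4 and 0.0785 for MUC20, and likewise without the second, at 0.0918 and 0.0550. Both comparisons use the same 2 estradiol libraries.

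The differences from estradiol depend on the scale. With median-of-ratios size factors the median of all genes was 0.02 in both comparisons with estradiol, against -0.26 without them, and MUC1 then passed the test, at 0.64 with tamoxifen (limma adjusted p = 0.0107) and 0.61 with tamoxifen plus alpelisib (limma adjusted p = 0.0111). Scaling to the summed epithelial markers, chosen after seeing the data, moved values the other way: the median of all genes was -0.96 for tamoxifen and -1.16 for tamoxifen plus alpelisib, each against estradiol. On that scale MUC20 was 0.16 with tamoxifen against estradiol, MUC4 was -0.28 and MUC1 was -0.59. With tamoxifen plus alpelisib against estradiol, MUC20 was -0.48, MUC4 -0.53 and MUC1 -0.93. Of these 6 values only those of MUC1 passed the test (limma adjusted p = 0.00943 for tamoxifen and 0.000809 for tamoxifen plus alpelisib), so the direction of the estradiol comparisons differed between FPKM and this scale for all but MUC20 with tamoxifen. Every comparison with vehicle was called on either scale.

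Adding alpelisib to tamoxifen left the 3 mucins without a called difference, where 11.7% of tested genes were called, 6.93% higher and 4.81% lower. MUC1 averaged 110.6 FPKM with tamoxifen plus alpelisib and 114.0 FPKM with tamoxifen, a log2 difference of -0.04 ± 0.17 (limma adjusted p = 0.909, 95% interval -0.46 to 0.38). MUC4 averaged 31.3 FPKM against 30.2 FPKM, a difference of 0.05 ± 0.14 (limma adjusted p = 0.862, 95% interval -0.30 to 0.39). MUC20 averaged 36.5 FPKM against 46.8 FPKM, which is 0.780 times, with a difference of -0.35 ± 0.13 (limma unadjusted p = 0.0386, adjusted p = 0.147, 95% interval -0.67 to -0.03). MUC20 was the 1 of 3 with an unadjusted p under 0.05, but it ranked only 3222 by p among the 12314 tested genes. Both of its libraries with alpelisib lay below both with tamoxifen alone, a separation that was not counted over all genes. Its adjusted p lay between 0.101 and 0.563 over the alternatives.

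**Figure D2:**
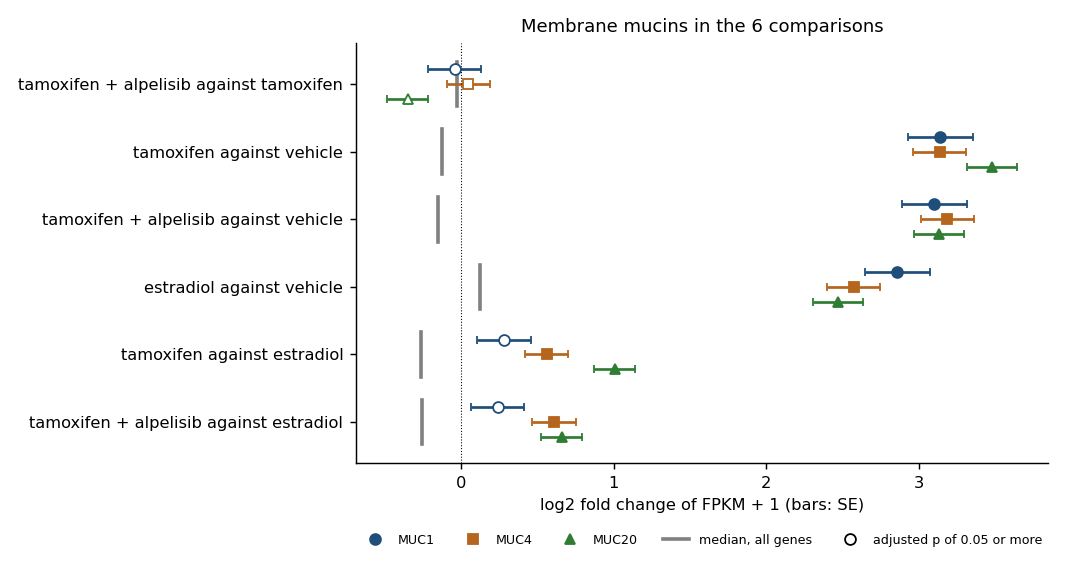
Log2 difference in FPKM + 1 for MUC1, MUC4 and MUC20 in the 6 comparisons, with bars of 1 SE; filled symbols have a limma adjusted p under 0.05, open ones do not, and the grey bar is the median of all 12314 tested genes. The 9 values against vehicle lie between 2.47 and 3.48, and the 3 for tamoxifen plus alpelisib against tamoxifen lie between -0.35 and 0.05; the values against estradiol are on the FPKM scale and fall to between -0.93 and 0.16 when scaled to the summed epithelial markers.

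The epithelial marker EPCAM did not share the low vehicle value of the mucins. It was at 268 and 288 FPKM with tamoxifen plus alpelisib, at 226 and 289 FPKM with tamoxifen, at 234 and 202 FPKM with estradiol and at 206 FPKM with vehicle, and it passed the test in none of the 6 comparisons (limma adjusted p between 0.194 and 0.827). The vehicle library thus held EPCAM within the range of the others. Expressed as a percent of EPCAM, MUC1 was at 40.8% and 38.8% with tamoxifen plus alpelisib, at 47.0% and 42.1% with tamoxifen, at 44.7% and 41.2% with estradiol and at 5.84% with vehicle. MUC4 was at 10.9% to 11.6% with tamoxifen plus alpelisib, at 10.4% to 13.4% with tamoxifen, at 7.75% to 11.0% with estradiol and at 1.24% with vehicle. MUC20 was at 12.2% to 14.0% with tamoxifen plus alpelisib, at 15.1% to 22.0% with tamoxifen, at 9.56% to 11.4% with estradiol and at 1.59% with vehicle. Relative to EPCAM, the gap between vehicle and all other libraries remained for each of the 3 mucins, and MUC4 with estradiol overlapped MUC4 with tamoxifen. MUC20 was higher in all 4 tamoxifen libraries than in both estradiol libraries on that scale as well. As a percent of the 10 summed epithelial markers it was not, at 0.574% and 0.496% with tamoxifen plus alpelisib against 0.685% and 0.828% with estradiol. EPCAM is only 1 of those 10 markers. With tamoxifen against vehicle 1 of the 10 was called higher and 3 lower, beside 14.9% and 24.1% of all tested genes.

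**Figure D3:**
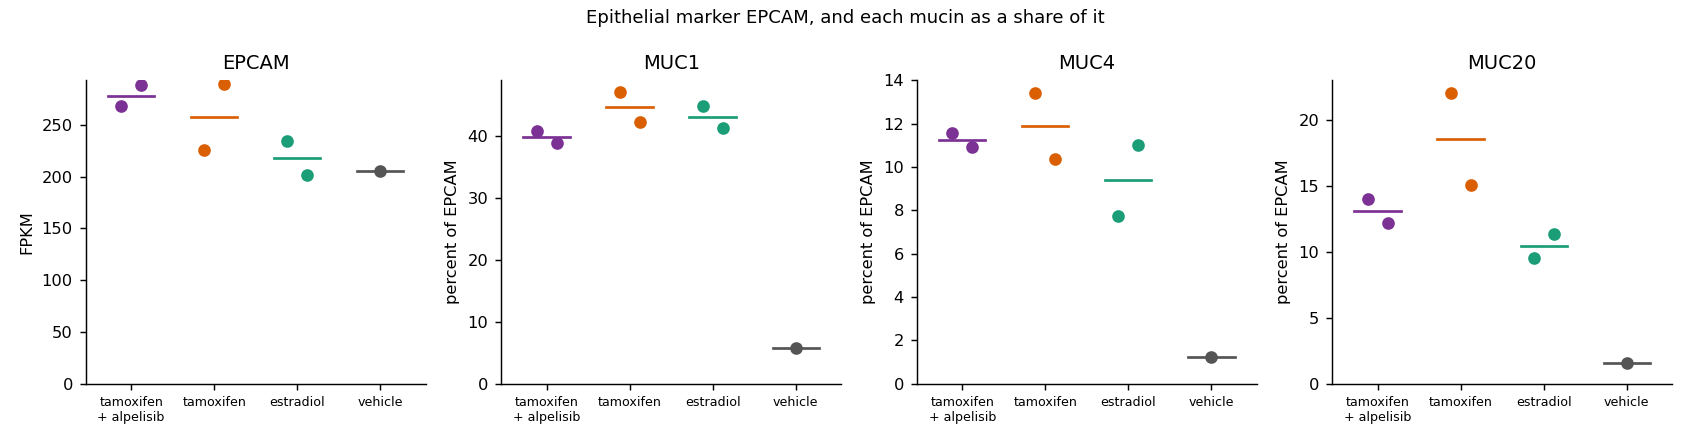
EPCAM in FPKM and each mucin as a percent of EPCAM in the same library, with 1 point per library. EPCAM lies between 202 and 289 FPKM in all 7 libraries, while MUC1 is at 5.84% of EPCAM in the vehicle library and between 38.8% and 47.0% in the others.

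The other marker lists moved in several directions. The 10 epithelial markers summed to 6560 and 7105 FPKM with tamoxifen plus alpelisib, to 4786 and 6392 FPKM with tamoxifen, to 3272 and 2776 FPKM with estradiol and to 7260 FPKM with vehicle, so the library lowest in mucins was highest in that sum. The 5 luminal markers, which mark the cells facing the uterine lumen, summed to 543 and 566 FPKM with tamoxifen plus alpelisib, to 404 and 470 FPKM with tamoxifen, to 286 and 211 FPKM with estradiol and to 464 FPKM with vehicle. In that sum vehicle lay among the tamoxifen libraries. None of the epithelial or luminal markers was at 0 in all libraries of a group.

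The 7 glandular markers summed to 219 to 241 FPKM with tamoxifen plus alpelisib, to 215 to 299 FPKM with tamoxifen, to 61.0 to 72.8 FPKM with estradiol and to 138 FPKM with vehicle. The secretory genes SPINK1 in every group, PRSS28 with estradiol and vehicle and PRSS29 with estradiol were at 0. PRSS29 made up most of the sum with tamoxifen, at 198 and 277 FPKM, and was at 0.512 FPKM with vehicle. ALDH1A1 made up most of it with vehicle, at 115 FPKM, against 9.21 and 10.5 FPKM with tamoxifen. Of 6 tested markers 1 rose and 3 fell with tamoxifen against vehicle, beside 14.9% and 24.1% of all tested genes called higher and lower. The 7 markers of squamous epithelium summed to 698 to 731 FPKM with tamoxifen plus alpelisib, to 364 to 396 FPKM with tamoxifen, to 164 to 167 FPKM with estradiol and to 38.9 FPKM with vehicle, and that is the epithelial list whose sum, like the mucins, was lowest with vehicle. The sum of the 6 ciliated markers was highest with vehicle, at 72.2 FPKM. It was 50.7 to 58.3 FPKM with tamoxifen plus alpelisib, 35.9 to 43.6 FPKM with tamoxifen and 26.9 to 40.7 FPKM with estradiol. Single markers differed: TPPP3 was highest with vehicle, at 38.1 FPKM. CAPSL was at 32.4 FPKM with vehicle but at 39.4 and 47.0 FPKM with tamoxifen plus alpelisib. Of 3 tested markers 1 fell and 0 rose with tamoxifen plus alpelisib against vehicle, beside 21.8% and 13.1% of all tested genes.

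Markers of cells outside the epithelium were also detected. The 8 leukocyte markers summed to 22.0 to 24.1 FPKM with tamoxifen plus alpelisib, to 11.6 to 14.3 FPKM with tamoxifen, to 146 to 240 FPKM with estradiol and to 33.6 FPKM with vehicle, with the T cell gene CD3E at 0 with tamoxifen, estradiol and vehicle and the neutrophil gene S100A8 at 0 with tamoxifen and vehicle. The 9 stromal markers summed to 120 to 128 FPKM with tamoxifen plus alpelisib, to 53.7 to 54.4 FPKM with tamoxifen, to 180 to 188 FPKM with estradiol and to 257 FPKM with vehicle. The 6 mesothelial markers summed to 35.7 to 37.2 FPKM with tamoxifen plus alpelisib, to 12.5 to 15.3 FPKM with tamoxifen, to 36.7 to 41.7 FPKM with estradiol and to 31.4 FPKM with vehicle. The vehicle library stood apart in the 6 smooth muscle markers, at 72.7 FPKM, against 17.0 to 18.1 FPKM with tamoxifen plus alpelisib, where ACTG2 was at 0, 19.8 to 22.3 FPKM with tamoxifen and 6.14 to 9.14 FPKM with estradiol. The 6 endothelial markers summed to at most 1.04 FPKM with tamoxifen plus alpelisib, to 1.02 to 1.25 FPKM with tamoxifen, to 6.27 to 7.12 FPKM with estradiol and to 9.82 FPKM with vehicle. The part of these cell populations in the mucin differences was not tested.

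Of 9 further membrane mucins and sialomucins listed, 5 had a row and 3 were tested. CD164, a sialomucin that is found largely inside cells, was in the range of MUC4 and MUC20, at 40.8 and 40.5 FPKM with tamoxifen plus alpelisib, at 52.7 and 50.1 FPKM with tamoxifen, at 42.8 and 28.9 FPKM with estradiol and at 40.2 FPKM with vehicle. Its vehicle level lay among the others, and it passed the test in none of the 6 comparisons (limma adjusted p between 0.0679 and 0.972). It was named after its values were seen. MUC13, a membrane mucin of the gut surface, stood at 5.34 and 6.31 FPKM with tamoxifen plus alpelisib, at 4.80 and 4.49 FPKM with tamoxifen, at 0.866 and 1.23 FPKM with estradiol and at 0.102 FPKM with vehicle. It thus ran in the order of MUC4, with all tamoxifen libraries above estradiol and estradiol above vehicle. Its log2 difference was 2.63 ± 0.19 for tamoxifen plus alpelisib and 2.36 ± 0.19 for tamoxifen, each against vehicle, and 0.89 ± 0.19 for estradiol against vehicle (limma adjusted p = 0.000285, 0.000346 and 0.0139). The last of these calls was lost in a fit of estradiol and vehicle alone. MUC13 passed the filter of 1 FPKM only through treated libraries, so its calls against vehicle are not independent of the filter. PODXL, which encodes the sialomucin podocalyxin, was lower: its log2 difference was -1.12 ± 0.19 for tamoxifen plus alpelisib and -1.56 ± 0.19 for tamoxifen, each against vehicle (limma adjusted p = 0.00685 and 0.00175). It was at most 0.968 FPKM in the libraries given tamoxifen and passed the filter only through the others, so the same limit holds. The 6 secreted gel-forming and small mucins were at most 0.0727 FPKM in any library, a value that belongs to MUC2 with estradiol, and none was tested.

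The sugar chains of mucins begin with the GalNAc transferases, which link the first sugar to serine or threonine. Of 16 such genes 11 were tested. With tamoxifen plus alpelisib against vehicle 4 rose and 2 fell, with tamoxifen against vehicle 6 rose and 2 fell, and with estradiol against vehicle 4 rose and 1 fell. Over all tested genes the shares called higher and lower were 13.1% and 21.8%, 14.9% and 24.1%, and 22.7% and 12.8% in that order. The list medians were 0.46, 0.73 and 0.22, against -0.15, -0.12 and 0.12 over all genes. GALNT6 and GALNT4 were at 0.237 and 0.967 FPKM with vehicle and passed the filter only through treated libraries. The counts that include them are thus not independent of the filter. GALNT7 rose in all 3, by 1.58 ± 0.16, 1.66 ± 0.16 and 1.64 ± 0.16 on the log2 scale (limma adjusted p = 0.000884, 0.000627 and 0.00110). GALNT3 stood at 34.4 and 35.0 FPKM with tamoxifen plus alpelisib, at 47.5 and 49.3 FPKM with tamoxifen, at 13.2 and 9.04 FPKM with estradiol and at 10.9 FPKM with vehicle. It was thus high where tamoxifen was given, with estradiol next to vehicle. Its log2 difference from estradiol was 1.58 ± 0.19 with tamoxifen plus alpelisib and 2.05 ± 0.19 with tamoxifen (limma adjusted p = 0.00101 and 0.000535). In the fit of estradiol and vehicle alone no gene of this list was called, and without either library of tamoxifen plus alpelisib 3 rose and 0 fell with that treatment against vehicle. With tamoxifen against vehicle 1 fell when either library of tamoxifen plus alpelisib or the first tamoxifen library was left out.

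The enzymes that extend the first sugar into the core structures showed the most uniform counts against vehicle. Of 7 genes 5 were tested, and 5 of 5 rose with tamoxifen plus alpelisib, 5 of 5 with tamoxifen and 4 of 5 with estradiol, beside 13.1%, 14.9% and 22.7% of all tested genes called higher. The list medians were 1.07, 1.37 and 1.11, against -0.15, -0.12 and 0.12 over all genes. This list, like the other mucin-related lists, was chosen with earlier results of these data known. Its counts beside those shares are therefore a description only. Without either library of tamoxifen plus alpelisib the first count was 3, and in a fit of estradiol and vehicle alone the last was 2. B3GNT3, which lengthens the core 1 chain, stood at 13.5 and 12.8 FPKM with tamoxifen plus alpelisib, at 12.5 and 12.1 FPKM with tamoxifen, at 13.8 and 12.3 FPKM with estradiol and at 1.28 FPKM with vehicle. None of its comparisons between the treated groups passed the test, and its log2 differences from vehicle were 2.63 ± 0.15, 2.54 ± 0.15 and 2.62 ± 0.15 (limma adjusted p = 0.000146, 0.000136 and 0.000421). GCNT3, the mucin-type branching enzyme, ran in another order, at 5.16 and 4.85 FPKM with tamoxifen plus alpelisib, 11.3 and 7.36 FPKM with tamoxifen, 28.0 and 31.9 FPKM with estradiol and 1.86 FPKM with vehicle. It was lower than with estradiol by 2.36 ± 0.20 on the log2 scale with tamoxifen plus alpelisib and by 1.61 ± 0.20 with tamoxifen (limma adjusted p = 0.000370 and 0.00160). C1GALT1C1, the chaperone of the core 1 synthase, was higher than with estradiol, by 2.24 ± 0.21 and 2.02 ± 0.21 (limma adjusted p = 0.000464 and 0.000785).

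Capping enzymes close the chains with sialic acid, fucose or sulfate. Of 12 genes 9 were tested; against vehicle 4 rose and 2 fell with tamoxifen plus alpelisib, 3 rose and 2 fell with tamoxifen, and 5 rose and 1 fell with estradiol, beside 13.1% higher and 21.8% lower, 14.9% and 24.1%, and 22.7% and 12.8% over all tested genes. The list medians were 0.25, -0.02 and 0.69. Some of these genes passed the filter only through the groups where they were high, so the counts are not independent of it. FUT4 and ST6GALNAC1 were at 0.447 and 0.0869 FPKM with vehicle. ST6GALNAC6 reached 1 FPKM only with vehicle, at 2.47 FPKM, and CHST4 only in the first estradiol library, at 1.02 FPKM. Without the second library of tamoxifen plus alpelisib, 1 fell with that treatment. The count with estradiol was 3 higher without either library of tamoxifen plus alpelisib, and in the fit of estradiol and vehicle alone it was 1, FUT2. FUT2, the fucosyltransferase that sets secretor status and marks the uterine surface with fucose in mice, stood at 20.9 and 21.9 FPKM with tamoxifen plus alpelisib, at 51.8 and 47.4 FPKM with tamoxifen, at 38.7 and 45.0 FPKM with estradiol and at 2.74 FPKM with vehicle. The 2 libraries with alpelisib were the lowest of the 6 treated ones. The log2 differences from vehicle were 2.59 ± 0.17, 3.76 ± 0.17 and 3.51 ± 0.17 (limma adjusted p = 0.000228, 7.10e-05 and 0.000373). FUT2 also differed between tamoxifen plus alpelisib and tamoxifen, by -1.17 ± 0.14 (limma adjusted p = 0.00718), a call lost without the first (adjusted p = 0.103) or the second (adjusted p = 0.0988) library of tamoxifen plus alpelisib.

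Proteases that release the mucin ectodomain were the last enzymes listed. All 4 were tested, and 3 rose against vehicle with tamoxifen plus alpelisib, 3 with tamoxifen and 3 with estradiol, beside 13.1%, 14.9% and 22.7% of all tested genes called higher. The list medians were 0.85, 1.05 and 1.26. The call on ADAM9 with tamoxifen was lost in 6 of 10 alternatives, among them testing with no filter. MMP14 lost its call with estradiol when no filter was used. ADAM17, the main sheddase of MUC1 known from human cells, stood at 12.8 and 12.6 FPKM with tamoxifen plus alpelisib, at 15.8 and 14.9 FPKM with tamoxifen, at 11.8 and 13.4 FPKM with estradiol and at 4.46 FPKM with vehicle. All treated libraries were above vehicle, and the log2 differences were 1.33 ± 0.16, 1.58 ± 0.16 and 1.32 ± 0.16 (limma adjusted p = 0.00178, 0.000772 and 0.00232). In a fit of estradiol and vehicle alone none of the 4 was called, and without either library of tamoxifen plus alpelisib 1 of the 4 was called with that treatment. Between tamoxifen plus alpelisib and tamoxifen none of the 4 proteases and none of the 5 core enzymes was called, beside 11.7% of all tested genes. Of the 11 GalNAc transferases 2 were higher and 2 lower there, beside 6.93% and 4.81% of all tested genes. Those calls were lost without either library of tamoxifen plus alpelisib.

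**Figure D4:**
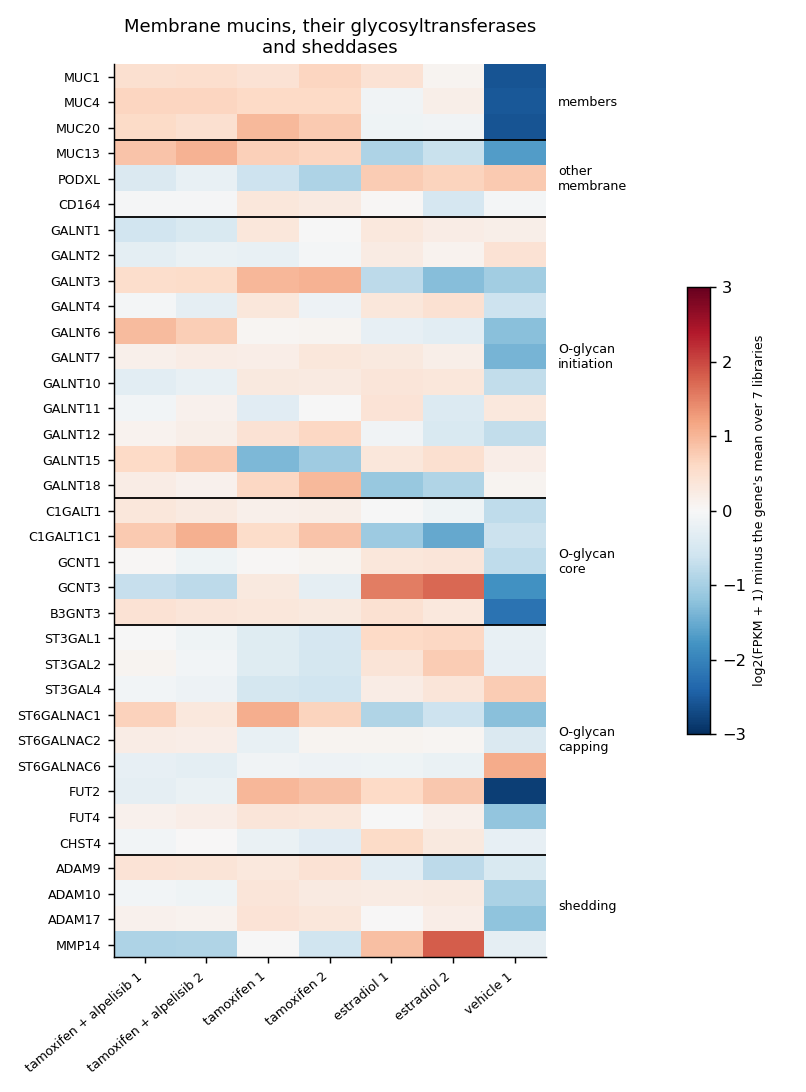
Heat map of log2(FPKM + 1) minus each gene's mean over the 7 libraries, for the tested membrane mucins, the other tested membrane mucins, the enzymes of O-glycan initiation, core extension and capping, and the shedding proteases; columns are the libraries. MUC1, MUC4, MUC20, B3GNT3 and FUT2 share a low value in the vehicle column, while GCNT3 is highest with estradiol and GALNT3 with tamoxifen.

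Genes whose pattern over the 7 libraries was most like each mucin were listed by the root mean square difference of log2(FPKM + 1), after removing each gene's own mean, among 6629 genes averaging at least 5 FPKM. RNF180, an E3 ubiquitin ligase, was nearest to both MUC4, at 0.112, and MUC20, at 0.172, and the fifth nearest to MUC1, at 0.165. The genes nearest to MUC1 were KHDC1A (0.152), CTSS, which encodes the protease cathepsin S (0.157), AP1S2 (0.163) and NAIP5 (0.164). MUC4 had AP1S2 (0.174), NAIP5 (0.187), TMPRSS6 (0.199) and KHDC1A (0.233) after RNF180, and MUC20 had TMPRSS6 (0.174), NAIP5 (0.200), SLC28A3 (0.230) and 1700024P16RIK (0.236). RNF180 and NAIP5 are thus on all 3 lists. The mucins themselves lay 0.205 apart for MUC4 and MUC20, 0.228 for MUC1 and MUC4 and 0.311 for MUC1 and MUC20. Since all these genes were picked over the same 7 libraries and share the low vehicle library, the likeness is a description. With a pseudocount of 0.1 the lists kept 2 of 5 genes for MUC1, 1 of 5 for MUC4 and 2 of 5 for MUC20.

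**Figure D5:**
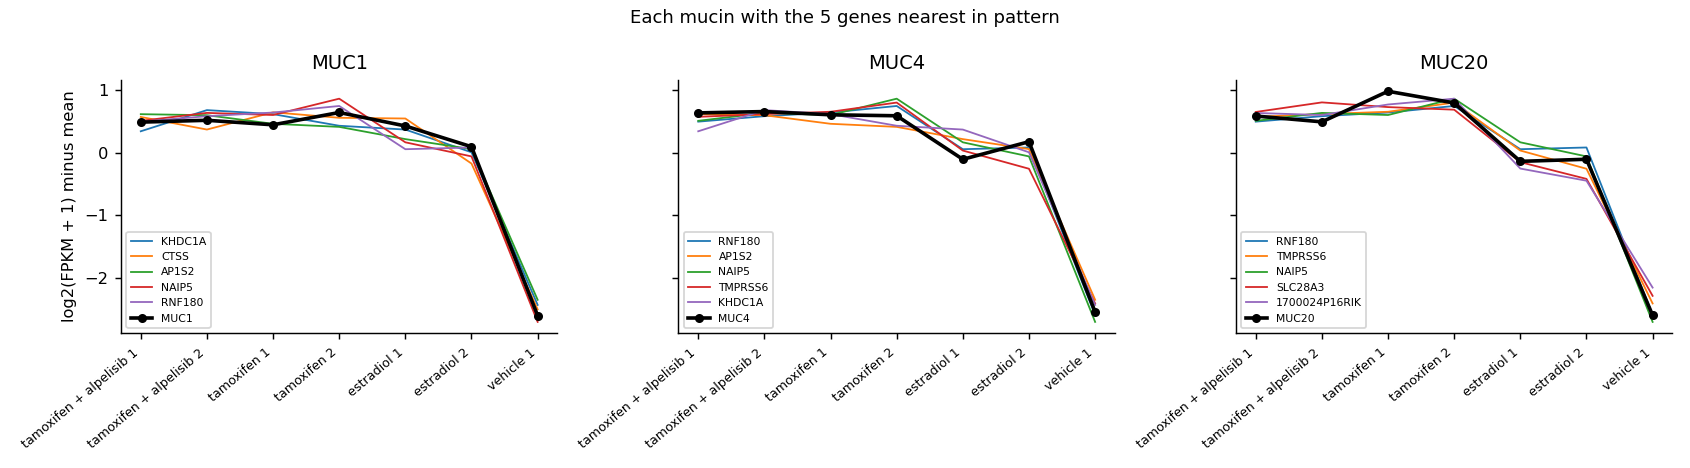
Log2(FPKM + 1) minus the gene's own mean over the 7 libraries for each mucin and the 5 genes nearest to it in pattern. All lines drop in the vehicle library and stay close to each other in the 6 others.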

How the data were processed

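Total RNA of epithelial endometrial cells was sequenced in 7 libraries (TruSeq RNA kit, per the labels' protocols). CASAVA, Bowtie and Cufflinks and the build hg19 are named in the submitters' processing notes, without versions; since the symbols are those of mouse genes written in capitals, no position was taken from the files. The deposited values are FPKM, made by the authors with the normalization of that unit, as read from the values, which are not whole numbers. How reads shared by overlapping genes or near-identical copies were assigned is not stated in them.

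Groups came from sample titles. FPKM values were taken as log2(FPKM + 1), genes with at least 1 FPKM in at least 1 library were kept (12314 of 24353), and 4 group means were fitted to all 7 libraries with limma 3.58.1 in R 4.3.3 (moderated test with a mean-variance trend). The design carried no covariate. A gene low in 1 group could pass the filter through another group where it was high, so its call is not independent of the filter. The vehicle group has 1 library and its spread is taken to equal that of the other groups, so the SE against vehicle comes from the 6 other libraries. P-values are two-sided and were adjusted by Benjamini-Hochberg over all tested genes within each of the 6 comparisons, with a threshold of 0.05. The fit was tested on simulated data with the same spread for every gene and library, so that test cannot check the spread assumed for vehicle. Since a replicate is named as a mouse in 6 libraries and vehicle is a single library, p-values against vehicle measure the spread between these few samples only.

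The members, marker lists and mucin-related lists were chosen with earlier results of these data known. From each mucin-related list up to 3 called genes of lowest p per comparison were named, and 5 genes nearest in pattern to each mucin. For the lists, counts and medians are described with no test of the list. Promoters are from RefSeq (GRCm38.p6), which matched 3 of the 4 genes with a row; exon overlaps are from GENCODE M21. Alternatives were median-of-ratios size factors, testing all rows, a pseudocount of 0.1, a fit of the compared groups alone, leaving out each library, a replicate block, and scaling to epithelial markers, the last added after seeing the data. Depth is not stated; FPKM gives no counts, so no counting interval is given.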

Additional observations from a re-analysis of the deposited data

How the results depend on the processing

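Against vehicle, MUC1, MUC4 and MUC20 kept their direction and call under every alternative run. The 3 were never called between tamoxifen plus alpelisib and tamoxifen. Against estradiol, 2 mucins were called with tamoxifen, 1 in a fit of the 2 groups alone and 1 to 2 when leaving out each library; with tamoxifen plus alpelisib the count was 2, and 0 to 2 when leaving out each library. Median-of-ratios size factors, which also called MUC1, gave 3 in both. Scaled to epithelial markers, MUC1 and MUC4 turned to -0.59 and -0.28 with tamoxifen against estradiol, and MUC1, MUC4 and MUC20 to -0.93, -0.53 and -0.48 with tamoxifen plus alpelisib against estradiol; the epithelial sum itself was lower with estradiol.

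Over all genes, tamoxifen plus alpelisib against tamoxifen gave 1445 calls, 870 with no filter, 603 with the replicate block and 14 to 1809 when leaving out each library, the lowest without the second library of tamoxifen plus alpelisib. Tamoxifen plus alpelisib against vehicle gave 4299 calls, 6843 in a fit of those groups alone and 1900 to 5096 when leaving out each library. Estradiol against vehicle gave 4366 calls, 197 in a fit of those groups alone and 2808 to 5063 when leaving out each library. Tamoxifen plus alpelisib against estradiol gave 6548 calls and 3871 to 6614 when leaving out each library. The cause of these shifts was not tested.

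For libraries with the same replicate number, deviations from the group means correlated at 0.27 over 12314 genes for the 2 tamoxifen arms. The correlation was -0.18 for tamoxifen plus alpelisib and estradiol and -0.40 for tamoxifen and estradiol. Each value rests on a single pair of libraries per group, so it cannot show whether the numbers mark pairs. With the replicate block the mucins called were 0, 2 and 2 for tamoxifen plus alpelisib against tamoxifen, tamoxifen against estradiol and tamoxifen plus alpelisib against estradiol, as without it. No paired analysis was possible because vehicle has 1 library without a number in the comparisons with vehicle.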

Other observations

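Of 9 partners known to bind membrane mucins or their tails, 2 rose and 1 fell with tamoxifen plus alpelisib, 1 rose and 2 fell with tamoxifen, and 4 rose and 1 fell with estradiol, each against vehicle. The shares of all tested genes called higher and lower were 13.1% and 21.8%, 14.9% and 24.1%, and 22.7% and 12.8%. Without either library of tamoxifen plus alpelisib the first count was 1 higher and 0 lower and the last 1 higher and 1 lower, without the first tamoxifen library the second was 1 higher and 1 lower, and in a fit of estradiol and vehicle alone none was called. Galectin-9 (LGALS9), a lectin, stood at 31.7 and 32.4 FPKM with tamoxifen plus alpelisib, at 25.2 and 38.0 FPKM with tamoxifen, at 31.8 and 18.3 FPKM with estradiol and at 6.50 FPKM with vehicle. Like the mucins it was higher than with vehicle, by 2.14 ± 0.36, 2.09 ± 0.36 and 1.75 ± 0.36 on the log2 scale (limma adjusted p = 0.00648, 0.00590 and 0.0134), and the call with estradiol was lost in a fit of estradiol and vehicle alone (adjusted p = 0.0934). Galectin-3 (LGALS3), a lectin of the glycocalyx, stood at 84.4 and 102 FPKM with tamoxifen plus alpelisib, at 24.9 and 40.9 FPKM with tamoxifen, at 48.7 and 36.2 FPKM with estradiol and at 147 FPKM with vehicle. It was lower than with vehicle: the log2 difference was -2.17 ± 0.34 with tamoxifen and -1.79 ± 0.34 with estradiol (limma adjusted p = 0.00393 and 0.00991), the second a call lost in a fit of estradiol and vehicle alone (adjusted p = 0.0687). With tamoxifen plus alpelisib LGALS3 was higher than with tamoxifen, by 1.51 ± 0.27 (limma adjusted p = 0.0226). That list had 3 of 9 genes called higher and none lower between the 2 tamoxifen arms, beside 6.93% and 4.81% of all tested genes. All of these calls were lost without either library of tamoxifen plus alpelisib, without the first tamoxifen library or with the replicate block.

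Proteins that tie the apical membrane to actin were also listed. Of 5 tested genes 2 fell and 1 rose with tamoxifen plus alpelisib, 3 fell with tamoxifen and 1 fell with estradiol, each against vehicle, where 21.8%, 24.1% and 12.8% of all tested genes were called lower. The count with tamoxifen plus alpelisib was 1 lower and 0 higher without either of its libraries, that with tamoxifen was 1 lower and 1 higher without its first library, and that with estradiol was 0 lower without either library of tamoxifen plus alpelisib, without the second estradiol library and in a fit of the 2 groups alone. Moesin (MSN), which is also expressed by stromal and blood cells, was at 2.06 and 1.93 FPKM with tamoxifen plus alpelisib, at 0.881 and 0.974 FPKM with tamoxifen, at 7.01 and 4.92 FPKM with estradiol and at 5.23 FPKM with vehicle. MSN and the stromal marker sum were both lower where tamoxifen was given than with estradiol or vehicle. Their orders differed otherwise: MSN averaged highest with estradiol, at 5.96 FPKM, and the stromal sum was highest with vehicle, at 257 FPKM. The part of stromal cells in the MSN values was not tested.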
